A study of Mus musculus with 14 samples.

Results

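Toll-like receptors and the proteins that present lipopolysaccharide (LPS) to them were followed in mouse macrophages depleted of Wdr82, a WD-repeat protein shared by the SET1 complexes, which methylate histone H3, and a complex of the phosphatase PP1. The set holds 10 genes of the 21761 with exon counts: Tlr1, Tlr2, Tlr3, Tlr4, Tlr6, Tlr7, Tlr9, Tlr13, Cd14 and Ly96. They were taken by name, not by a measured value, and were matched by gene identifier to exon and intron counts. All 10 had intron counts, and all 10 passed the filter on low counts for exons and for introns.

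The knockdown group was 2 cultures of untreated bone marrow-derived macrophages from FVB/Hsd mice, 1 with the Wdr82 hairpin sh1137 and 1 with the Wdr82 hairpin sh830. The control group was 2 such cultures with a scrambled hairpin, scrambled 1 and scrambled 2. Cells of both groups were grown with L929-conditioned medium, infected with retrovirus from Phoenix-ECO packaging cells and selected with puromycin, and none had been given LPS. Hairpins lower a transcript in a whole selected culture and delete no gene, the hairpins of the knockdown group differ, and no source used here says whether the cultures came from separate animals, so the spread between libraries may be partly technical.

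Toll-like receptors bind conserved molecules of microbes and signal through adaptors such as MyD88 and TRIF to NF-κB and interferon regulatory factors. Those at the cell surface bind bacterial cell wall components, and those in endosomes bind nucleic acids. Macrophages are classical responders to LPS, which CD14 transfers to the complex of TLR4 with MD-2, the protein that Ly96 encodes.

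Libraries held 34787556 exon counts of genes with sh1137 and 43372731 with sh830, against 40074419 in scrambled 1 and 42635790 in scrambled 2. Introns took 44.2% of exon plus intron counts with sh1137 and 15.2% with sh830, against 40.4% in scrambled 1 and 14.6% in scrambled 2. This difference pairs sh1137 with scrambled 1 and sh830 with scrambled 2. A term for it, called the library term, stands beside the group term in the fits. It was put in the main fit because fits without it were already known to call nothing, and the adjusted p values do not account for that choice. Wdr82 exon CPM (counts scaled per 1000000 of the library's exon counts, with TMM factors) were 25.1 with sh1137 and 40.7 with sh830, against 100.3 in scrambled 1 and 144 in scrambled 2 (log2 fold change -1.91 ± 0.094 SE, adjusted p = 0.0022 in edgeR). Every log2 fold change given is of the Wdr82 hairpins over scrambled, and "rose", "fell" and "called" refer to an adjusted p under 0.05 in edgeR's quasi-likelihood test with the library term. That fit has 1 residual degree of freedom, and without the library term edgeR called 0 of the 13884 genes tested, with 646 at an unadjusted p under 0.05. Of the 10 genes, 1 (Tlr1) was among those 646. With 2 libraries a group, the smallest p an exact permutation test can give is 0.33.

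The cells carried high counts of macrophage markers, with Csf1r at 2209 CPM with sh1137 and 2311 CPM with sh830, against 2693 and 2194 CPM in scrambled 1 and 2. The summed CPM of 8 macrophage markers was 8432 with sh1137 and 14165 with sh830, against 9436 and 11400.1 in scrambled 1 and 2, and 2 of them, Cd68 and Fcgr1, fell. The 6 stromal markers summed to 8.11 CPM with sh1137 and 123 CPM with sh830, against 3.11 and 39.3 CPM in scrambled 1 and 2, and 2 of them, Col1a1 and Acta2, rose, although the Col1a1 level followed the library pair, at 0.774 and 53.3 CPM with sh1137 and sh830, against 0.0978 and 9.26 CPM in scrambled 1 and 2. Dendritic cell markers summed to 7.58 and 5.38 CPM with sh1137 and sh830, against 3.99 and 2.41 CPM in scrambled 1 and 2, and 1 of 6, Xcr1, rose. The B cell marker Pax5 was at 0 in all 4 libraries, and Cd79b, 1 of 3 B cell markers tested, fell. The B cell list summed to 1.81 and 3.25 CPM with sh1137 and sh830, against 3.37 and 5.49 CPM in scrambled 1 and 2. Of 4 T cell markers only 1 passed the filter on low counts, and neither it nor any of the 5 neutrophil markers tested was called. The T cell and neutrophil lists summed to at most 1.89 and 12.0 CPM in any library. Beside these counts, 6.06% of all genes tested were called higher and 7.79% lower, and no marker list was tested against those shares. In bulk RNA, fewer cells of a type and less RNA per cell cannot be told apart, and the part of these markers in the results below was not tested.

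Of the 10 genes, 2 fell in exon counts, Tlr1 and Tlr13, and none rose. Across all genes tested, 7.79% were called lower and 6.06% higher, and DESeq2 with the library term called 7% lower and 5.67% higher. Tlr1, whose product pairs with TLR2 to bind triacylated lipopeptides, lay at 0.43 times its control level. Tlr13, a mouse endosomal receptor for bacterial ribosomal RNA, lay at 0.67 times. The median log2 fold change of the 10 genes was -0.05, beside -0.01 over all genes tested. The exon CPM of both knockdown libraries lay below both scrambled libraries for these 2 genes, as for 15.7% of all genes tested, and above them for Ly96 alone, as for 15.7% of all genes tested.

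**Figure D1:**
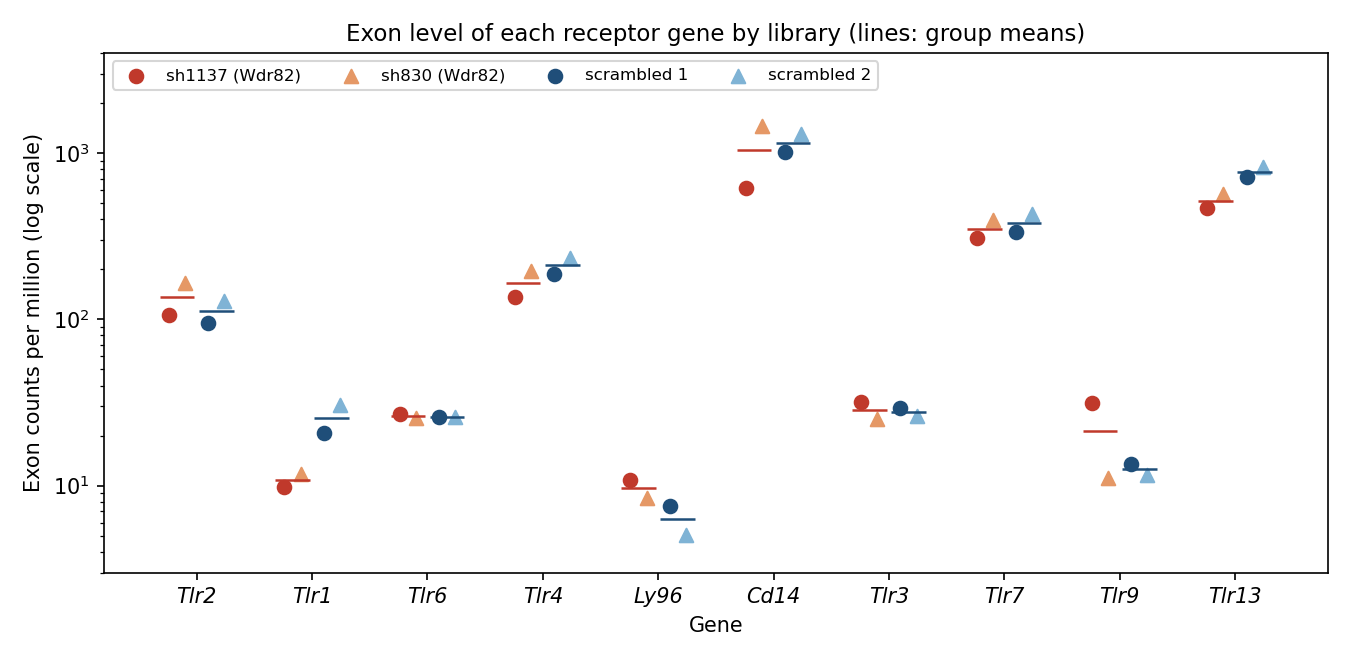
Exon CPM (log10 axis) of the 10 genes in each library, with Wdr82 hairpin libraries drawn left of scrambled libraries and lines for group means. Tlr1 and Tlr13 lie lower in both hairpin libraries than in both scrambled libraries, Ly96 lies higher, and the groups of the other 7 genes overlap.

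The upstream sequences of 4 of the genes are printed because they belong to the called receptors (Tlr1 and Tlr13), to the paralogue next to Tlr1 that was not called (Tlr6), and to a receptor whose start carries a called non-gene region (Tlr2). Each is the 250 bases before a RefSeq start in GRCm38.p6, written 5′ to 3′ on the gene's strand, and RefSeq's table matched 6 of the 10 genes. The table lists 2 starts each for Tlr1 and Tlr6, and the one shown is that whose distance to the gene's end is nearest to the gene's span in the authors' annotation, so the matches given hold for that start. Capitals mark matches to 6 motifs on either strand, of which those found in these windows are spelled out after them.
Tlr1, chr5:64933559-64933808, minus strand: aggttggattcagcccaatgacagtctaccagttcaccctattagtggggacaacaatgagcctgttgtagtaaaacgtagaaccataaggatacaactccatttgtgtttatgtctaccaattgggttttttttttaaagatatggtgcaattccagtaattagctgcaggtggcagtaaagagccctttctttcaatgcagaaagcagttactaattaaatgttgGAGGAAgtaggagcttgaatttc
Tlr6, chr5:64960049-64960298, minus strand: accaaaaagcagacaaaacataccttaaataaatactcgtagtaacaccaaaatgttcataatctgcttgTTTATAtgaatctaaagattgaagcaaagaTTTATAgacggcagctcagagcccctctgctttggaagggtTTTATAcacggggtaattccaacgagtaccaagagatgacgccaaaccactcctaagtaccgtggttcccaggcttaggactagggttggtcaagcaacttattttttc
Tlr2, chr3:83841609-83841858, minus strand: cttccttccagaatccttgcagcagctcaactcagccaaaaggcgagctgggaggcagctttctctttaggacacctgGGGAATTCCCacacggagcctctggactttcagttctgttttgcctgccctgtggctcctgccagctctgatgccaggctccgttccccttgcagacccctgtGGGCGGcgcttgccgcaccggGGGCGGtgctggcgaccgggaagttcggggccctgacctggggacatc
Tlr13, chrX:106143025-106143274, plus strand: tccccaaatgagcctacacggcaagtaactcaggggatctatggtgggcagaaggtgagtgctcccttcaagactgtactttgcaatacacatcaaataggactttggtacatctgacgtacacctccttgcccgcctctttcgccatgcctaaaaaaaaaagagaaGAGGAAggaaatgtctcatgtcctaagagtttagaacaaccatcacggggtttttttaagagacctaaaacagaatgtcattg

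The Tlr1 window holds 1 GAGGAA, the core that PU.1 binds, 23 bases before the start, and the Tlr13 window holds 1, 83 bases before the start. The Tlr9 window, searched but not printed, also holds 1, 112 bases before the start, and Tlr9 was not called. The Tlr2 and Tlr3 windows hold no GAGGAA. That motif is in 23.3% of the 32851 promoters of this length in the table. The Tlr6 window has no GAGGAA and holds the TATA box letters TATAAA on the opposite strand, where it reads TTTATA, at 180, 150 and 109 bases before its start. TATAAA on either strand is found in 12.4% of promoters. The Tlr2 window holds an NF-κB core (GGGA and CC with 4 bases of any kind between) at 172 bases before the start, as do 17.6% of promoters, and the GC box GGGCGG at 69 and 48 bases before it, as do 32.7%. The Tlr3 window, which is not printed, holds 2 NF-κB cores, at 211 and 23 bases before its start. The AP-1 motif TGANTCA, in 6.75% of promoters, has no match in the 4 windows printed. Among the 6 windows searched it has 1 match, in that of Tlr9, 58 bases before the start. The interferon-stimulated response element core (GAAA, 2 bases of any kind, GAAA), in 2.98% of promoters, had none in the 6 windows searched. No matches overlap in the 4 windows. These are matches of letters and not binding sites.

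Among the receptors for lipopeptides, Tlr1 fell, and neither Tlr2, which encodes its partner, nor the neighbouring paralogue Tlr6 was called. Tlr1 (gene identifier 21897) spans 65316073 to 65324799 on the minus strand of chromosome 5 in mm9, with 5 exons and 2902 bases of exon. Its exon counts were 368 with sh1137 and 493 with sh830, against 853 in scrambled 1 and 1210 in scrambled 2, which are 9.82 and 11.7 CPM with sh1137 and sh830, against 20.9 and 30.4 CPM in scrambled 1 and 2. Both hairpin libraries are low, and the groups do not overlap. The means were 10.8 ± 1.32 CPM with the Wdr82 hairpins and 25.6 ± 6.71 CPM with scrambled (SD, n = 2 each), and the log2 fold change was -1.23 ± 0.14 SE (edgeR adjusted p = 0.010). DESeq2 with the library term gave an adjusted p of 6.0e-06, and edgeR with the group term alone gave 0.50. With 1 library left out in turn, in fits with the group term alone, the value ran from -1.51 to -0.93.

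Tlr6 (21899), which pairs with TLR2 for diacylated lipopeptides, lies 19534 bp from Tlr1 on the same strand of chromosome 5, at 65344334 to 65351287 in mm9. Its exon CPM was 26.8 with sh1137 and 25.6 with sh830, against 25.8 in scrambled 1 and 25.9 in scrambled 2. The libraries overlap and lie close together, and the log2 fold change was 0.02 ± 0.10 SE (adjusted p = 0.92 in edgeR). The neighbouring paralogues thus stood at different values, a difference that was not itself tested.

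Tlr2 (24088; chromosome 3, 83640194 to 83645530, minus strand, mm9), the shared partner of both, had 106 CPM with sh1137 and 166 CPM with sh830, against 95.4 CPM in scrambled 1 and 129 CPM in scrambled 2. Each hairpin library is above the scrambled library of like intron share, but the groups overlap. The log2 fold change was 0.26 ± 0.093 SE (adjusted p = 0.12 in edgeR).

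Of the genes of LPS recognition at the surface, none was called in exon counts. Tlr4 (21898; chromosome 4, 66488845 to 66503830, plus strand, mm9), the LPS receptor itself, had 135.5 CPM with sh1137 and 196 CPM with sh830, against 188 CPM in scrambled 1 and 235 CPM in scrambled 2. The sh830 library lies between the scrambled libraries, so the groups overlap, while each hairpin library is below its counterpart of like intron share. The log2 fold change was -0.36 ± 0.094 SE (adjusted p = 0.056 in edgeR). The adjusted p was 0.045 in DESeq2 with the library term and 0.036 in edgeR without the filter on low counts, so the call of Tlr4 turns on these settings.

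Ly96 (17087; chromosome 1, 16678537 to 16699686, plus strand, mm9), which encodes the LPS-binding partner of TLR4, had 10.9 CPM with sh1137 and 8.41 CPM with sh830, against 7.56 CPM in scrambled 1 and 5.07 CPM in scrambled 2. Both hairpin libraries are above both scrambled libraries. The log2 fold change was 0.63 ± 0.19 SE (adjusted p = 0.075 in edgeR), so the difference did not pass the threshold. Tlr4 and Ly96, whose products work as one complex, thus had log2 fold changes of opposite sign, and neither was called.

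Cd14 (12475; chromosome 18, 36884721 to 36886308, minus strand, mm9), the co-receptor that hands LPS to the complex, had 617 CPM with sh1137 and 1461 CPM with sh830, against 1015 CPM in scrambled 1 and 1297 CPM in scrambled 2. The hairpin libraries are the lowest and the highest of the 4. The means were 1039 ± 597 CPM with the Wdr82 hairpins and 1156 ± 199 CPM with scrambled (SD, n = 2 each), and the log2 fold change was -0.27 ± 0.22 SE (adjusted p = 0.43 in edgeR). Within the pairs of like intron share the log2 difference was -0.72 for sh1137 minus scrambled 1 and 0.17 for sh830 minus scrambled 2.

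Among the endosomal receptors for nucleic acids, Tlr13 fell and Tlr3, Tlr7 and Tlr9 were not called. Tlr13 (279572; chromosome X, 103338614 to 103355832, plus strand, mm9; 4014 bases of exon) had exon counts of 17523 with sh1137 and 23924 with sh830, against 29291 in scrambled 1 and 32748 in scrambled 2. As CPM these are 468 and 567 with sh1137 and sh830, against 716 and 821 in scrambled 1 and 2. The groups do not overlap, and the differences within the pairs of like intron share were close to each other, -0.62 for sh1137 and -0.54 for sh830 on the log2 scale. The log2 fold change was -0.58 ± 0.098 SE (adjusted p = 0.022 in edgeR), and edgeR with the group term alone gave an adjusted p of 0.77. With 1 library left out in turn the value ran from -0.71 to -0.44.

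Tlr7 (170743; chromosome X, 163742863 to 163768469, minus strand, mm9), a receptor for single-stranded RNA, had 308 CPM with sh1137 and 394 CPM with sh830, against 336.5 CPM in scrambled 1 and 428 CPM in scrambled 2. The groups overlap, and the log2 fold change was -0.12 ± 0.088 SE (adjusted p = 0.37 in edgeR). Tlr3 (142980; chromosome 8, 46481019 to 46495893, minus strand, mm9), the receptor for double-stranded RNA, had 31.6 CPM with sh1137 and 25.0 CPM with sh830, against 29.3 CPM in scrambled 1 and 26.3 CPM in scrambled 2. Its hairpin libraries are the highest and the lowest of the 4, and the log2 fold change was 0.02 ± 0.11 SE (adjusted p = 0.91 in edgeR).

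Tlr9 (81897; chromosome 9, 106124929 to 106129207, plus strand, mm9), the receptor for unmethylated CpG DNA, had 31.6 CPM with sh1137 and 11.1 CPM with sh830, against 13.6 CPM in scrambled 1 and 11.6 CPM in scrambled 2. The sh1137 library alone is high, and the sh830 library lies below both scrambled libraries. The log2 fold change was 0.59 ± 0.31 SE (adjusted p = 0.24 in edgeR). Tlr9 begins 30891 bp after the end of Wdr82 on chromosome 9, with Alas1 and Twf2 beside it. Of these neighbours, Alas1, the first enzyme of heme synthesis, stood at 0.30 on the log2 scale (edgeR adjusted p = 0.079), and Twf2, an actin-binding protein gene, fell to 53.0 and 77.5 CPM with sh1137 and sh830, against 68.3 and 102 CPM in scrambled 1 and 2 (-0.38 ± 0.083 SE, adjusted p = 0.037 in edgeR and 0.065 in DESeq2 with the library term). The Twf2 groups overlap, and its value ran from -0.68 to -0.04 with 1 library left out and no library term.

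Within the pairs of like intron share, 6 of the 10 genes had differences of one sign for both hairpins: Tlr1, Tlr2, Tlr4, Tlr7, Tlr13 and Ly96. The same share over all genes was not computed, so this count does not show that the hairpins agree more than for other genes. The hairpins differed most for Tlr9, at 1.22 for sh1137 minus scrambled 1 and -0.06 for sh830 minus scrambled 2 on the log2 scale, and then for Cd14.

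**Figure D2:**
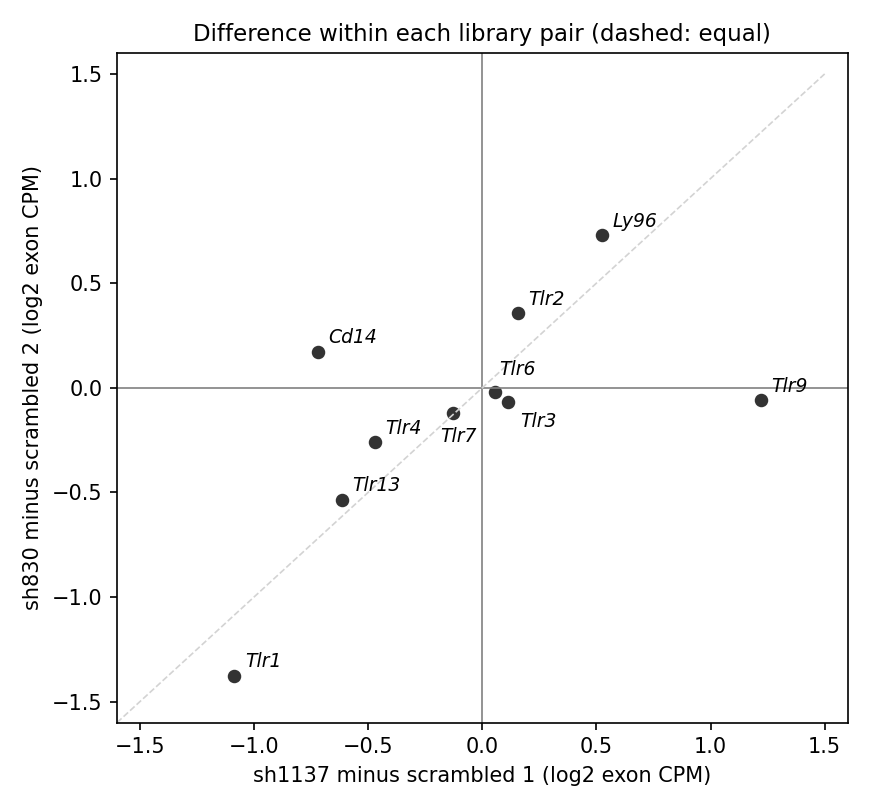
Difference in log2 exon CPM of sh1137 minus scrambled 1 (horizontal) and sh830 minus scrambled 2 (vertical), 1 point per gene, with a dashed line where both are equal. Tlr1 (-1.09, -1.38) and Tlr13 (-0.62, -0.54) lie low on both axes, while Tlr9 and Cd14 lie far from the line.

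Counts over introns, which can come from unspliced RNA, were set beside the exon counts of the same genes. The origin of these reads was not tested. Tlr1 and Tlr13 fell in introns too, and Cd14 fell in introns alone, so 3 of the 10 genes were called lower in introns and 0 higher. DESeq2 with the library term called 1 of them lower, Tlr1. Across all genes tested in introns, edgeR called 3.93% lower and 5.97% higher, DESeq2 with the library term called 2.67% lower and 4.74% higher, and leaving out the library term gave 0 called genes among the 10 in edgeR, with 1 at an unadjusted p under 0.05. Tlr1 had 149 intron counts with sh1137 and 60 with sh830, against 311 in scrambled 1 and 108 in scrambled 2, and its log2 change was -1.05 ± 0.19 SE (edgeR adjusted p = 0.025). Tlr13 had 1106 and 310 intron counts with sh1137 and sh830, against 1533 and 399 in scrambled 1 and 2, and its log2 change was -0.51 ± 0.10 SE (edgeR adjusted p = 0.033). For both genes the intron CPM of both hairpin libraries lay below that of both scrambled libraries, as for 14.1% of all genes tested in introns, while 17.1% lay higher without overlap. With 1 library left out, in fits with the group term alone, the Tlr13 intron value was as near 0 as -0.27 (without scrambled 1) and -0.31 (without sh830). The remaining 8 genes overlapped between the groups.

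Cd14 has 1 intron, of 91 bp, which held 112 counts with sh1137 and 228 with sh830, against 213 in scrambled 1 and 300 in scrambled 2. Its intron log2 fold change was -0.74 ± 0.17 SE (adjusted p = 0.044 in edgeR), and the groups overlapped. Intron counts were 0.482% of its exon plus intron counts with sh1137 and 0.368% with sh830, against 0.511% in scrambled 1 and 0.577% in scrambled 2 (95% Wilson intervals, counting error only, 0.401 to 0.580% and 0.324 to 0.419%, against 0.447 to 0.584% and 0.515 to 0.646%). These shares do not follow the split of the libraries by intron share. Without sh1137 the intron log2 fold change of Cd14 was 0.18 and without scrambled 2 it was 0.69, in fits with the group term alone. Within the pairs of like intron share the log2 difference in intron CPM was -0.95 for sh1137 and -0.55 for sh830.

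Ly96 lay at the other end, with introns taking 80.3% of its counts with sh1137 and 50.6% with sh830, against 76.8% in scrambled 1 and 57.6% in scrambled 2 (95% Wilson intervals 78.5 to 81.9% and 47.0 to 54.3%, against 74.5 to 79.0% and 53.1 to 61.9%). Its introns span 20547 bp and its exons 603 bp. In introns its log2 change was 0.49 ± 0.13 SE (edgeR adjusted p = 0.069), beside an exon value of 0.63, and neither passed. With RLE factors, upper quartile factors or no filter edgeR gave Ly96 introns adjusted p values of 0.033, 0.032 and 0.012, and without sh1137 and the library term the value was 0.07. Tlr2 had 0.48 ± 0.14 SE in its introns (adjusted p = 0.073 in edgeR), with adjusted p values of 0.045 with upper quartile factors and 0.049 without a filter. With 1 library left out and no library term, the Tlr2 intron value ran from -0.55 without sh830 to 1.52 without scrambled 2, and was -0.14 without scrambled 1.

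The difference between intron and exon change was tested for each gene as an interaction in edgeR. Cd14 was the 1 gene of the 10 that passed, at a log2 difference of -0.54 ± 0.14 SE (adjusted p = 0.0075), beside 2.23% of all genes called in that direction and 2.12% in the other. Without the term that lets interval types differ between the library pairs, 0 of the 10 passed, and the Cd14 value was 0.14 without sh1137 and 0.36 without scrambled 2 in such fits. For Tlr1 the difference was 0.13 ± 0.22 SE (adjusted p = 0.84) and for Tlr13 0.05 ± 0.11 SE (adjusted p = 0.90), so intron and exon counts of these genes were not separated by the test.

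**Figure D3:**
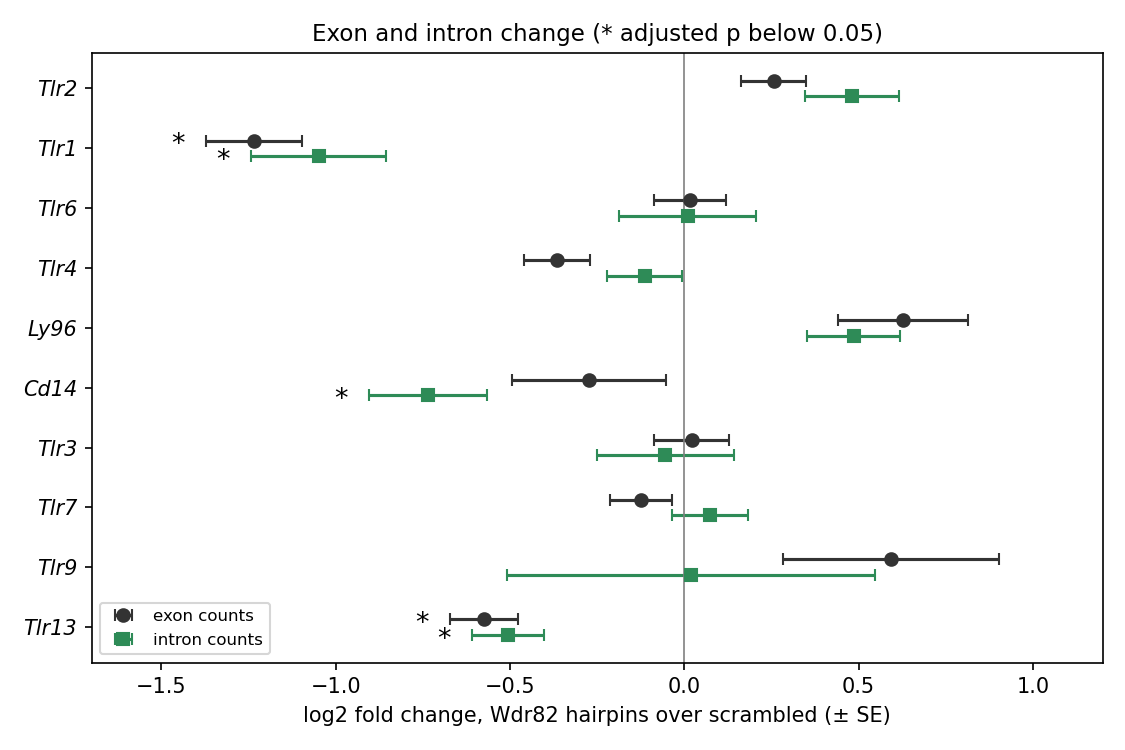
Log2 fold change, Wdr82 hairpins over scrambled, of exon counts (circles) and intron counts (squares) of each gene. Bars are the SE derived from the F statistic of edgeR with the library term, and asterisks mark an adjusted p under 0.05. Tlr1 and Tlr13 carry asterisks for both kinds of count, and Cd14 for introns alone.

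The authors also counted reads in non-gene regions, which their labels tie to the start (TSS) or end (TES) of a gene. The authors selected the regions on a comparison of hairpin with vector libraries, so the sign of their change is not independent evidence. Of the 1070 tested, 54.6% were called higher and 0% lower, and their median log2 fold change was 1.37. The rule of a place within 100 kb of one of the 10 genes, or its name, gave 6 regions, and 3 of them were called higher.

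The region named for the Tlr2 start covers 83645500 to 83649999 of chromosome 3 in mm9 and overlaps the Tlr2 first exon by 31 bp. It held 136 counts with sh1137 and 102 with sh830, against 12 in scrambled 1 and 18 in scrambled 2, and its log2 fold change was 2.99 ± 0.45 SE (adjusted p = 0.018 in edgeR). The Tlr2 exons beside it had a log2 fold change of 0.26, which did not pass. The region therefore rose next to a gene whose own counts were not called, and whether strand was used in counting is not given in the sources used here.

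The region named for the Tlr7 start covers 163768500 to 163771499 of chromosome X, from 30 bp upstream of the gene. It held 188 counts with sh1137 and 145 with sh830, against 6 in scrambled 1 and 20 in scrambled 2, and its log2 fold change was 3.73 ± 0.60 SE (adjusted p = 0.020 in edgeR). Tlr7 exons, at -0.12, were not called. The region named for the Tlr7 end, at 163728000 to 163742999, held 1307 and 1541 counts with sh1137 and sh830, against 1079 and 1165 in scrambled 1 and 2, and did not pass (0.36 ± 0.098 SE, adjusted p = 0.062 in edgeR).

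Downstream of Ly96, the region at 16704000 to 16709499 of chromosome 1 begins 4313 bp past the gene's end. It held 598 counts with sh1137 and 164 with sh830, against 269 in scrambled 1 and 80 in scrambled 2, and its log2 fold change was 1.13 ± 0.21 SE (adjusted p = 0.027 in edgeR). The library of high intron share had more counts in each group, and with 1 library left out and no library term its value ran from -0.15 without sh1137 to 2.29 without scrambled 1. Downstream of Tlr9, the region at 106129000 to 106131499 of chromosome 9 shares 208 bp with the gene and held 385 and 154 counts with sh1137 and sh830, against 165 and 138 in scrambled 1 and 2 (0.73 ± 0.36 SE, adjusted p = 0.21 in edgeR). Like Tlr9 itself, it was high in the sh1137 library alone. The sixth, named for the end of Klf3 and 90073 bp from Tlr1, stood at 0.17 on the log2 scale (edgeR adjusted p = 0.38).

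**Figure D4:**
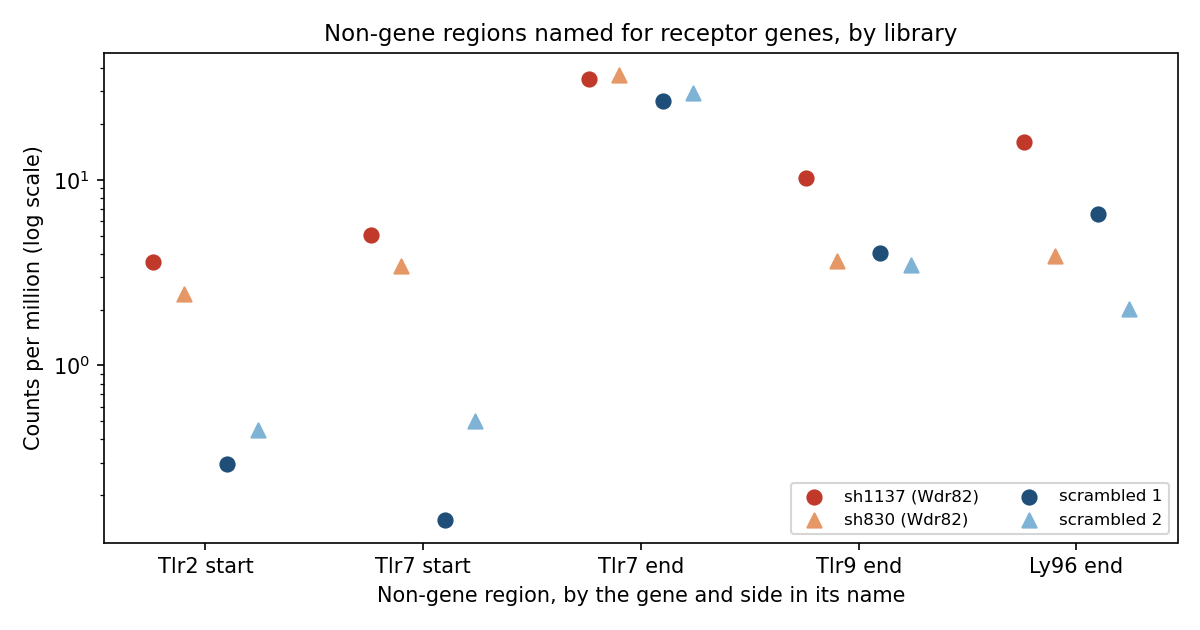
CPM (log10 axis) in each library of the 5 non-gene regions named for one of the 10 genes, with Wdr82 hairpin libraries left of scrambled libraries. The regions at the starts of Tlr2 and Tlr7 lie between 2.42 and 5.02 CPM in the hairpin libraries and between 0.147 and 0.502 CPM in the scrambled libraries.

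Levels were compared between the genes only per length, as exon CPM per kb of exon averaged over the 4 libraries. Cd14 was highest at 733, followed by Tlr13 at 160, Tlr7 at 93.0, Tlr4 at 49.0, Tlr2 at 43.5, Ly96 at 13.2, Tlr6 at 9.97, Tlr3 at 6.37, Tlr1 at 6.26 and Tlr9 at 4.89 CPM per kb. Of the neighbours in that order, Tlr4 and Tlr2, Ly96 and Tlr6, Tlr3 and Tlr1, and Tlr1 and Tlr9 overlapped across libraries, while the other 5 pairs did not. Tlr1 had 3.38 and 4.03 CPM per kb with sh1137 and sh830, against 7.19 and 10.5 CPM per kb in scrambled 1 and 2. Its place is thus above Tlr3 in both scrambled libraries, where Tlr3 had 6.64 and 5.96 CPM per kb, and below Tlr3 in both hairpin libraries, where Tlr3 had 7.18 and 5.68 CPM per kb.

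The genes whose exon pattern over the 4 libraries lay nearest to that of Tlr1, among 12015 genes by Euclidean distance of centred log2 CPM, were Pparg (0.037), Asns (0.15) and Cdkn3 (0.16). Pparg, a nuclear receptor for fatty acids, had 6.94 and 8.55 CPM with sh1137 and sh830, against 14.9 and 21.8 CPM in scrambled 1 and 2. With 4 libraries this is a description only.

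Other genes of the pathway were read from lists by role. Of the other Toll-like receptors, 2 of 4 passed the filter, Tlr5 (log2 fold change 0.43) and Tlr8 (-0.02), and neither was called. Of 8 genes of LPS handling and cytosolic LPS sensing, 1 rose and 0 fell, with a list median of -0.05, beside 6.06% called higher and 7.79% called lower over all genes. Aoah, the lipase that removes acyl chains from LPS, rose to 65.9 and 56.8 CPM with sh1137 and sh830, against 41.5 and 36.2 CPM in scrambled 1 and 2 (0.66 ± 0.089 SE, adjusted p = 0.015 in edgeR). Cd36, a scavenger receptor that works with TLR2, had 243 and 519 CPM with sh1137 and sh830, against 728 and 665 CPM in scrambled 1 and 2 (log2 fold change -0.97, adjusted p = 0.076 in edgeR and 0.00022 in DESeq2 with the library term). Its groups do not overlap, and with 1 library left out and no library term the value ran from -1.51 to -0.43.

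Of 13 genes that fold, move or cleave the receptors, 2 rose and 0 fell, with a list median of 0.01. Both act on endosomal receptors. Unc93b1, which escorts them out of the endoplasmic reticulum, had 533 and 637 CPM with sh1137 and sh830, against 412 and 467 CPM in scrambled 1 and 2 (0.41 ± 0.094 SE, adjusted p = 0.043 in edgeR). Ctsl, a lysosomal protease that can cleave them, had 400.4 and 429 CPM with sh1137 and sh830, against 251 and 254 CPM in scrambled 1 and 2 (0.71 ± 0.090 SE, adjusted p = 0.013 in edgeR). The proteases Lgmn, Ctss and Ctsb of the same list, at -0.14, -0.16 and 0.07 on the log2 scale, were not called. Hsp90b1, also of the list, stood at -0.34 (adjusted p = 0.075 in edgeR and 0.037 in DESeq2 with the library term). The share called higher over all genes was 6.06%, and Tlr13, an endosomal receptor that uses Unc93b1, was among the genes that fell.

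Of 26 adaptors, kinases, ubiquitin ligases and transcription factors of the pathway, 0 rose and 2 fell, with a list median of -0.12. That count stands beside 7.79% called lower over all genes, close to the list's own share. Irf7, the interferon regulatory factor activated downstream of TLR7 and TLR9, fell to 32.7 and 23.3 CPM with sh1137 and sh830, against 65.4 and 67.4 CPM in scrambled 1 and 2 (-1.26 ± 0.15 SE, adjusted p = 0.011 in edgeR). Pik3ap1, the adaptor BCAP that links the receptors to phosphoinositide 3-kinase, fell to 283 and 196 CPM with sh1137 and sh830, against 377 and 320 CPM in scrambled 1 and 2 (-0.56 ± 0.11 SE, adjusted p = 0.029 in edgeR). In fits with the group term alone its value was -0.84 without sh1137 and -0.28 without sh830. Myd88 itself had -0.40 (adjusted p = 0.073 in edgeR).

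Of 15 brakes on the pathway, none was called in edgeR, beside 6.06% called higher and 7.79% called lower over all genes, and the list median was -0.04. DESeq2 with the library term called 1 of them lower, Cd180 (adjusted p = 0.039), beside 7% of all genes. A list of 15 genes is too short to set these counts apart from those shares. Of 16 sensors outside the Toll-like family, 1 rose and 1 fell, with a list median of 0.14, beside 6.06% called higher and 7.79% called lower over all genes, so the counts are near the background. Clec7a, the β-glucan receptor dectin-1, had 8.22 and 30.2 CPM with sh1137 and sh830, against 3.89 and 11.2 CPM in scrambled 1 and 2 (1.27 ± 0.16 SE, adjusted p = 0.013 in edgeR). Its groups overlap, and in fits with the group term alone its value ran from 0.12 without sh830 to 2.32 without scrambled 2. Cgas, the cytosolic DNA sensor, had 26.7 and 26.2 CPM with sh1137 and sh830, against 44.6 and 36.1 CPM in scrambled 1 and 2 (-0.60 ± 0.11 SE, adjusted p = 0.028 in edgeR). In edgeR with the group term alone, 0 genes of these lists passed.

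**Figure D5:**
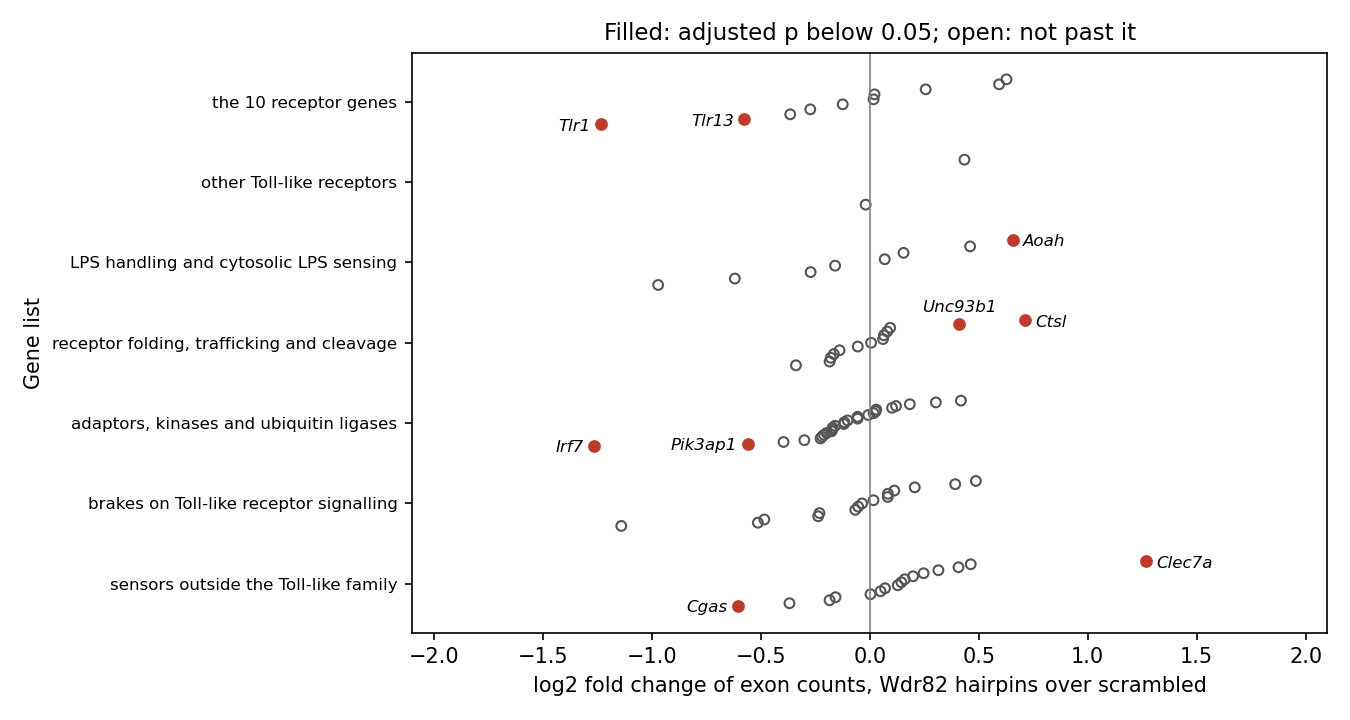
Log2 fold change of exon counts, Wdr82 hairpins over scrambled, for the 10 genes and for each list of the pathway, 1 circle per gene, filled where the adjusted p was under 0.05. Filled circles lie on the low side for Tlr1, Tlr13, Irf7, Pik3ap1 and Cgas and on the high side for Aoah, Ctsl, Unc93b1 and Clec7a.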

How the data were processed

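Exon and intron reads of 4 untreated total-RNA libraries were analysed, and 10 of the 14 samples of the series were not analysed here. Per the labels' protocols, ribosomal RNA was removed with Ribo-Zero from DNase-treated RNeasy preparations, and TruSeq libraries kept the strand. The authors deposited raw counts per gene over exons and over introns, with other mm9 coordinates of genes and non-gene regions. Named in the submitters' processing notes are mm9, SICER, Cuffdiff 2.1.1, TopHat 1.3.1 and Cufflinks 2.1.1, and the counting tool and its strand setting are not given in the sources used here, so reads where features overlap may have gone to either. Exon counts of all genes and regions were fitted with TMM factors in edgeR 4.0.16 (R 4.3.3), with filterByExpr, a group term and the library term, quasi-likelihood F-tests and Benjamini-Hochberg adjustment over the whole table at 0.05. Introns were fitted likewise. Each edgeR SE was derived from the test, as the absolute log2 fold change over the square root of the F statistic. It depends on the terms fitted, and for Tlr4 exons was 0.094 with the library term and 0.29 with the group term alone. DESeq2 1.42.0, other factors, filters and left-out libraries were alternatives. Scripts were tested on simulated data built with the same split of the libraries, which cannot show whether the library term is right for the real data. Named were Wdr82, the 10 genes, up to 2 called genes per direction of each list, 3 genes of like pattern and regions within 100 kb. Others, such as genes near the threshold, markers and neighbours of Tlr9, were named after their values were seen. The genes and lists were chosen with earlier results of these data known. The library term was put in the main fit because fits with the group term alone were already known to call nothing. The adjusted p values do not account for that choice.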

Additional observations from a re-analysis of the deposited data

How the results depend on the processing

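The calls rest on the library term. With the group term alone or with the crossed split (scrambled 1 with sh830), 0 of the 10 genes passed in exons or introns, 0 of the 6 regions passed and, with the group term alone, 0 genes of the pathway lists, against 2, 3, 3 and 7 with the library term. DESeq2 with the group term alone called 0 of the 10 genes in exons, 0 in introns and 2 regions. In exons, DESeq2 with the library term and edgeR without a filter each called 3 lower, Tlr4 being the addition, and no alternative called one higher. In introns, DESeq2 with the library term called 1 lower and the logit of the intron share 2 lower, while RLE factors called 1 higher, upper quartile factors 2 and no filter 2. Upper quartile factors called 4 regions. DESeq2 with the library term called 6 pathway genes lower, against 3 in edgeR, with Cd36, Hsp90b1 and Cd180 added. For intron against exon change, 1 passed with the split term and 0 without it. With each library left out in turn, in fits with the group term alone, exons gave 0 to 0 calls, introns 0 to 1, regions 0 to 1, intron against exon 0 to 0, and pathway genes 0 to 1 higher and 0 to 0 lower. With 1 library left out, the log2 change of Cd14 introns ran from -2.28 to 0.69, positive without sh1137 (0.18) and without scrambled 2. Its intron against exon change ran from -1.35 to 0.36, positive without sh1137 (0.14) and without scrambled 2. The region downstream of Ly96 ran from -0.15 (without sh1137) to 2.29. The cause was not tested. Without division by length, 6 of 10 genes kept their place in the order of levels. No paired analysis was possible because the knockdown libraries carry no replicate number in the labels, so no pairing comes from the design; the pairs of the library term come from the measured intron share. Tlr9 introns held at most 26 counts a library, which limits what could be detected there.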
